A study of Mus musculus with 4 samples.

Results

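Dnmt3a encodes DNA methyltransferase 3A, an enzyme that places new methyl groups on cytosines of DNA. Dnmt3l encodes a related protein that lacks catalytic activity of its own and stimulates the active enzymes. Each gene was read by 1 probe with 1 spot on a custom Agilent oligonucleotide array, chosen by its RefSeq systematic name, NM_007872.1 for Dnmt3a and NM_019448.2 for Dnmt3l. They are 2 of the 41819 systematic names on the array. Total RNA came from brain and from thymus, where T cells develop, of mice labelled as adult and of the inbred strain C57BL/6J, with no allele or treatment named. Each tissue had 2 samples, called biological replicates in the labels without naming animals, so p-values measure the spread between these samples. Each array also carried, in its other dye, a universal mouse reference RNA pooled from cell lines, per the deposited readme. The arrays belong to a study of the DNA methylome of primordial germ cells, and the question open to these samples is how far the messages of both genes differ between adult tissues.

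De novo methylation sets patterns on unmethylated DNA in early development and in germ cells, and maintenance methylation then copies them through cell division. DNMT3A carries this out together with DNMT3B, and DNMT3L binds both and is best known for its role in germ cells, where it is needed for parental imprints and for the silencing of transposable elements in male germ cells. In adults DNMT3A is also known for its part in blood stem cell differentiation and in neurons, while Dnmt3l is expressed mainly in germ cells and in embryonic stem cells. A shorter form of DNMT3A is made from a promoter inside the gene.

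CG dinucleotides are the main target of these enzymes, and the start regions of both genes are shown because they differ in CG content. The arrays measured neither methylation nor promoter use. RefSeq (GRCm38.p6) gave 3 windows of 300 bases around annotated starts for each gene, and the windows below are the first of each gene and the most downstream of Dnmt3a, with each CG in capitals. CG reads the same on both strands, and its matches do not overlap.
Dnmt3a, upstream start, chr12:3806730-3807029, plus strand: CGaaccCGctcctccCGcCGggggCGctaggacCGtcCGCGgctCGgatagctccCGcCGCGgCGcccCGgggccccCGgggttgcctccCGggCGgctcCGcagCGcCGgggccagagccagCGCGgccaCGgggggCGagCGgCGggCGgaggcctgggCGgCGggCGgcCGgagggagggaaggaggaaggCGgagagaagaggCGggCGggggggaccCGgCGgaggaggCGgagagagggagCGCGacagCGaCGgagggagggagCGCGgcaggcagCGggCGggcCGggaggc
Dnmt3a, downstream start, chr12:3891494-3891793, plus strand: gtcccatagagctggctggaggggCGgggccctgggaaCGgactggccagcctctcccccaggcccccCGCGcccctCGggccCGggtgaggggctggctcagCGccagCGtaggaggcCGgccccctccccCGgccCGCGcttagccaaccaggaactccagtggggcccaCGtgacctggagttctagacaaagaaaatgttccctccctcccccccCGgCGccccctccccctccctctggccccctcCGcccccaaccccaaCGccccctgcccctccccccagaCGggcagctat
Dnmt3l, upstream start, chr10:78042037-78042336, plus strand: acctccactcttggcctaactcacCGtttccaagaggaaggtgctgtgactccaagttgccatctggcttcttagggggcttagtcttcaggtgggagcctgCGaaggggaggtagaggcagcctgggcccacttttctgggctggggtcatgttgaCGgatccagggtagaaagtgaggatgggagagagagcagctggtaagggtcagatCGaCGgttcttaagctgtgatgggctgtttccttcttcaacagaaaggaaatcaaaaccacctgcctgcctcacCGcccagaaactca
The upstream Dnmt3a window held 46 CGs, as many as or more than 98.6% of the 32851 windows of this length in the table. The downstream Dnmt3a window held 18, a number that 29.7% of windows reached. The upstream Dnmt3l window held 6, against a median of 7 over all windows, and 94.6% of all windows held a CG. The other Dnmt3l windows held 4 and 3 CGs, and the other Dnmt3a window, which overlaps the upstream one, held 47.

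Facts of the whole arrays bear on the values below. The tissue RNA carried Cy3 in replicate 1 and Cy5 in replicate 2 of each tissue, so the dye and the replicate number are the same factor and each tissue holds both dyes. The share of probes well above background in the tissue channel ran from 55.7% to 97.3%, and was larger in the Cy5 sample of each tissue. No scan day held both tissues, so scan day and tissue cannot be told apart. Of 26 genes of the DNA methylation machinery listed for the comparison, only Dnmt3a and Dnmt3l could be matched to a named probe. Of 9 brain markers, Sox9 alone had a named probe, and its scaled log2 signals were 0.14 and -0.04 in brain and -3.93 and -2.74 in thymus. The Sox9 reading of thymus 1 (-3.93) was not called well above background, so its level there is not measured. None of 10 thymus markers and none of 6 markers of blood, stroma and vessels had a named probe, so the thymus label was not checked against markers.

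Dnmt3a RNA was lower in brain than in thymus. Levels are log2 of the processed spot signal minus the 75th percentile of that channel, so that 0 is the 75th percentile of the sample's probes. Dnmt3a stood at -1.93 in brain 1 and -2.03 in brain 2, and at 0.16 in thymus 1 and 0.03 in thymus 2. Both thymus samples lay above both brain samples, and the gap between tissues was far wider than that within either tissue. The mean was -1.98 ± 0.07 (SD, n = 2) in brain and 0.10 ± 0.09 in thymus. The brain minus thymus difference was -2.07 (SE 0.25, 95% interval -2.67 to -1.47), which is 4.21-fold lower in brain (limma adjusted p 0.000844). Of the 27148 features tested, 17% were called lower in brain and 33.2% were called in either direction, and in 65.3% the samples of the tissues did not overlap. Without thymus 1 the difference was -2.01 and the limma adjusted p was 0.0772, over 40646 features in place of 27148. With the tested features held fixed, the fit gave Dnmt3a a pooled spread (SE 0.498) in place of its own. The p-value of that fit therefore does not measure the spread of Dnmt3a. In whole organs, fewer cells that express a gene and less RNA per cell cannot be told apart.

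Dnmt3l RNA showed no difference between the tissues that passed the threshold. Its scaled log2 signal was -2.35 in brain 1, -1.82 in brain 2, -1.72 in thymus 1 and -1.61 in thymus 2. Both thymus samples were higher, but brain 2 lay closer to thymus 1 than to brain 1. The mean was -2.08 ± 0.38 (SD, n = 2) in brain and -1.67 ± 0.08 in thymus. The brain minus thymus difference was -0.42 (SE 0.29, limma adjusted p 0.336), with a 95% interval of -1.10 to 0.26. This interval reaches from a signal 2.14-fold lower in brain to one slightly higher. The brain samples differed by 0.53 for Dnmt3l, and 29.9% of the tested features had a larger gap between them. Without brain 1 the difference was -0.15, and without brain 2 it was -0.68.

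**Figure D1:**
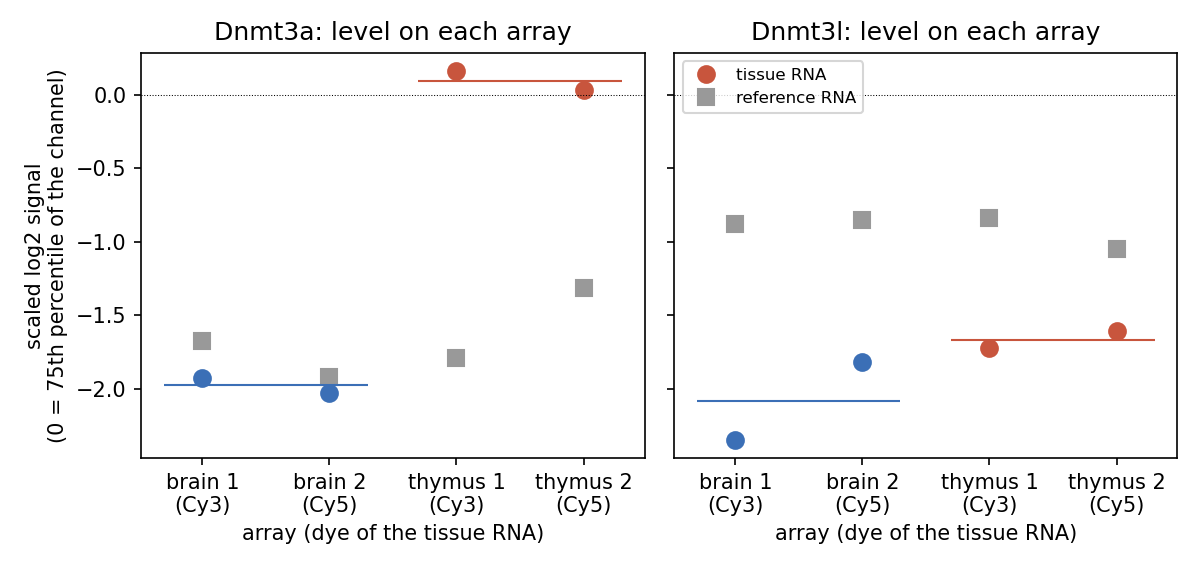
Scaled log2 signal of Dnmt3a (left) and Dnmt3l (right) on each array (vertical axis, 0 is the 75th percentile of the channel), with circles for tissue RNA (blue brain, red thymus), grey squares for reference RNA on the same array and lines for the mean of each tissue. Dnmt3a lies near 0 in thymus only, whereas every tissue sample of Dnmt3l lies below the reference squares.

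Pairs of samples with the same dye gave the same order. Between the Cy3 samples the Dnmt3a difference, brain minus thymus, was -2.09, and between the Cy5 samples it was -2.06. The corresponding Dnmt3l differences were -0.63 and -0.21. In the scaled signals the Dnmt3a values thus lay closer together than the Dnmt3l values. In the ratios to the reference RNA the Dnmt3a differences were -2.20 and -1.43 and the Dnmt3l differences -0.58 and -0.38, so that there the Dnmt3a values lay further apart. The difference of Dnmt3a exceeded that of Dnmt3l by -1.66 log2 units. An exact permutation test over the 4 samples (two-sided) gave p = 0.333, the smallest value that 2 samples against 2 allow, so this test could not pass a threshold whatever the values.

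Set against all tested features, the Dnmt3a difference lay in the outer part of the distribution and that of Dnmt3l in its middle. The median difference over all features was -0.12 log2 units. A difference of at least the size of that of Dnmt3a was found in 12.7% of features, and 5% of features were at least as far towards thymus. For Dnmt3l, 58.1% of features had a difference of at least its size.

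**Figure D2:**
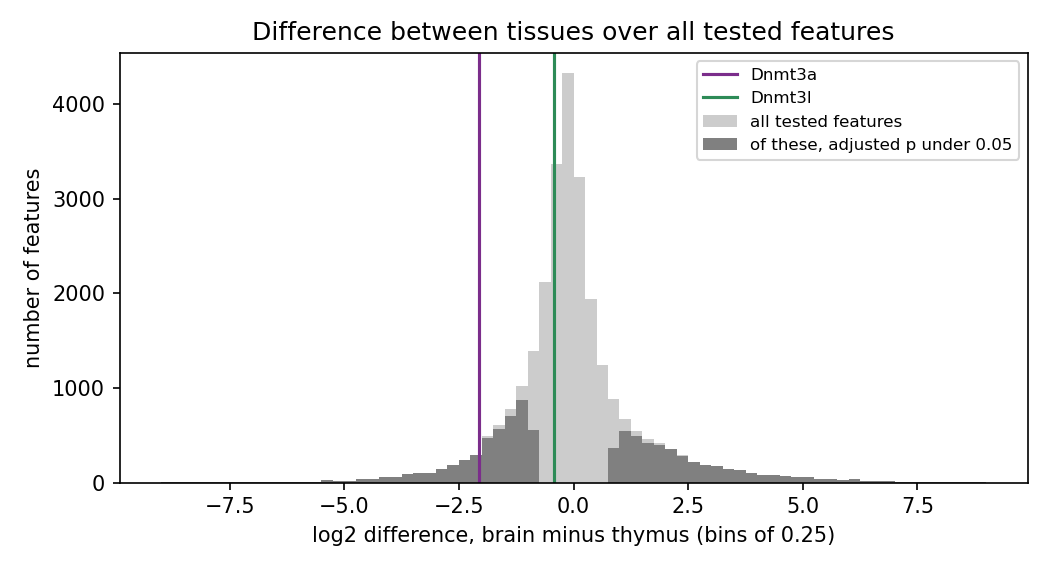
Number of tested features (vertical axis) by log2 difference, brain minus thymus (horizontal axis, bins of 0.25), with all features in light grey and those with a limma adjusted p under 0.05 in dark grey. The line for Dnmt3a at -2.07 stands among called features. The line for Dnmt3l at -0.42 stands in a bin of 3369 features, of which 0 were called.

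The reference channel shows how far the signal of the same material varied between arrays. This spread also holds the swap of dye between replicates and the within-array normalization, which cannot be told apart from the arrays. Dnmt3a in the reference RNA stood at -1.68 and -1.92 on the brain arrays and at -1.79 and -1.32 on the thymus arrays. The thymus 2 array was thus the highest, and the arrays of the tissues overlapped. The difference, brain arrays minus thymus arrays, was -0.24 (SE 0.24, limma adjusted p 1). It was -0.48 without the thymus 1 array and -0.0068 without the thymus 2 array. Dnmt3l in the reference RNA stood at -0.88 and -0.85 on the brain arrays and at -0.84 and -1.05 on the thymus arrays, with a difference of 0.08 (SE 0.19, limma adjusted p 1). These reference values spread by 0.26 (SD, n = 4) for Dnmt3a and 0.10 for Dnmt3l. Of 27176 features, 0% were called in the reference channel with limma, and 1063 had an unadjusted p under 0.05, while scaling to the median gave 25 calls.

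Relative to the reference RNA on the same array, Dnmt3a was higher in thymus and, after the within-array normalization, close to the reference in brain. The log2 ratio of tissue to reference was 1.96 in thymus 1 and 1.34 in thymus 2, and -0.24 in brain 1 and -0.09 in brain 2. Both thymus ratios lay well above 0, and both brain ratios lay just below it. Before the within-array normalization, the background-subtracted Dnmt3a signals were 79 in tissue and 204 in reference RNA in brain 1. In brain 2 they were 336 and 67. The closeness of both brain ratios to 0 thus rests on this step. Thymus exceeded the reference by 1.65 log2 units (SE 0.19, 95% interval 1.18 to 2.12), or 3.14-fold (limma adjusted p 0.00308), where 12.9% of 27124 features were called higher. Brain differed from the reference by -0.16 (SE 0.19, limma adjusted p 0.535), with a 95% interval of -0.64 to 0.31. It was -0.09 without brain 1 and -0.24 without brain 2. Without thymus 1 the excess in thymus was 1.34 with a limma adjusted p of 0.304, and 0.0402 with the tested features fixed. The thymus ratios differed by 0.62, a gap larger than that of Dnmt3a in the scaled signals (0.13), and only 7.76% of features had a larger gap.

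Dnmt3l was lower than the reference in all 4 tissue samples after the within-array normalization. Its log2 ratio of tissue to reference was -1.45 in brain 1, -0.95 in brain 2, -0.88 in thymus 1 and -0.57 in thymus 2. Every ratio was below 0, and the brain ratios were the lower pair. Before the within-array normalization, the background-subtracted Dnmt3l signal was already below the reference in brain 1 (59 against 353) and thymus 1 (355 against 476). It was above the reference in brain 2 (323 against 143) and thymus 2 (868 against 141), where tissue RNA carried Cy5. The sign of the ratio on those arrays thus rests on this step. Brain was below the reference by -1.20 log2 units (SE 0.18, 95% interval -1.66 to -0.74), or 2.3-fold (limma adjusted p 0.00364), where 22.7% of features were called lower and 44.4% in either direction. Thymus was below it by -0.72 (SE 0.18, 95% interval -1.18 to -0.27), or 1.65-fold (limma adjusted p 0.0384), where 12.7% of features were called lower and 25.6% in either direction. The call in thymus was lost with no filter on dim probes (limma adjusted p 0.138), without thymus 1 (0.763) and without thymus 2 (0.162). The call in brain was lost without thymus 1 (0.0781, and 0.00738 with the tested features fixed).

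The ratios thus ordered the RNAs differently for each gene. For Dnmt3a the order was thymus, reference and brain, in which reference and brain did not differ beyond their spread. For Dnmt3l it was reference, thymus and brain, in which thymus and brain did not. By the ratios the brain minus thymus difference of Dnmt3a was -1.81 (SE 0.27, limma adjusted p 0.00495), where 17.4% of features were called lower and 34.3% in either direction. The ratios of the tissues did not overlap for either gene, as in 67.6% of features. For Dnmt3l it was -0.48 (SE 0.26, 95% interval -1.13 to 0.17, limma adjusted p 0.227). It was -0.23 without brain 1 and -0.73 without brain 2, and for the latter the 95% interval was -1.34 to -0.12 and the limma adjusted p 0.0686. Without thymus 1 the Dnmt3a difference was -1.50, with a limma adjusted p of 0.217, and 0.0302 with the tested features fixed. Normexp background correction and loess gave -1.30 for Dnmt3a and -0.24 for Dnmt3l.

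**Figure D3:**
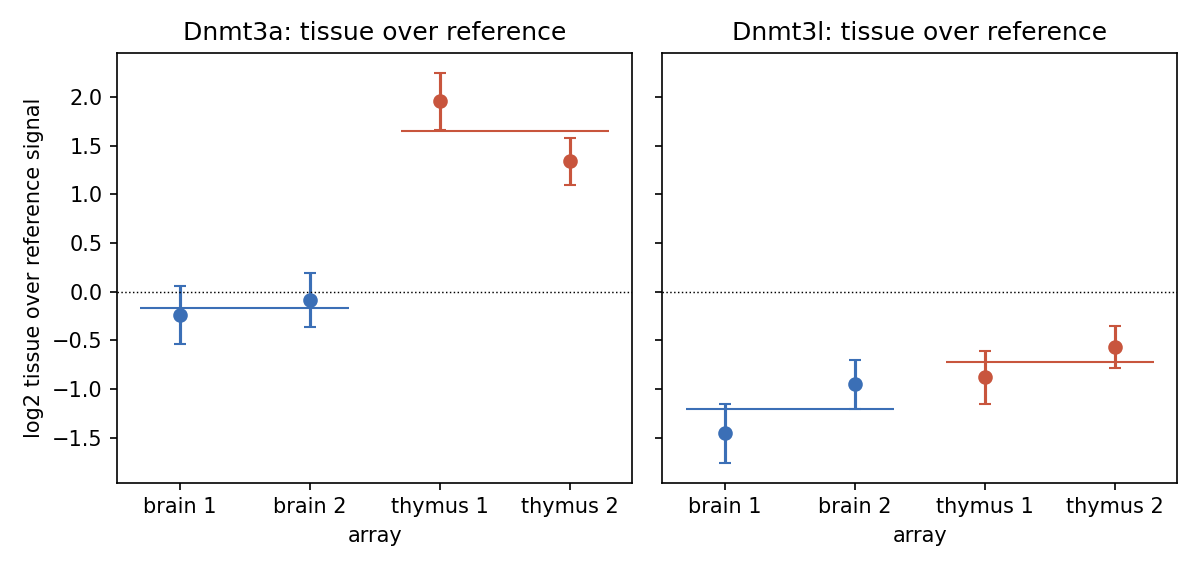
Log2 ratio of tissue to reference signal (vertical axis) of Dnmt3a (left) and Dnmt3l (right) on each array, with bars for the error that the scanner software gives to each ratio and lines for the mean of each tissue. The dotted line at 0 marks equal signal, and the bars of all 4 Dnmt3l ratios and of both thymus ratios of Dnmt3a lie off it.

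The scanner software gives each spot a technical error, apart from the spread between samples. In the authors' deposited table of each array, the error of the log2 ratio ran from 0.24 to 0.30 for Dnmt3a and from 0.21 to 0.30 for Dnmt3l. The ratio of Dnmt3a had a p of 2.51e-11 in thymus 1 and 1.99e-08 in thymus 2 in the authors' deposited table, and of 0.426 in brain 1 and 0.754 in brain 2. For Dnmt3l the authors' deposited table gave 1.82e-06 in brain 1, 0.000159 in brain 2, 0.00126 in thymus 1 and 0.00767 in thymus 2. These p-values describe single spots and not the tissues. The gap between replicate ratios was 1.63 times their combined error for Dnmt3a in thymus and 0.37 times in brain. For Dnmt3l it was 1.28 times in brain and 0.89 times in thymus.

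Both probes gave measurable signal in every channel. All 8 readings of each gene, in tissue and reference channels of the 4 arrays, were called well above background and positive and significant, and none was saturated or an outlier. Of all probes, 55.7% to 97.3% were well above background in the tissue channels and 57.4% to 86.1% in the reference channels. Both channels were so on all 4 arrays for 20161 features, against 41531 tested with no filter, so these flags do not set both genes apart. The processed signal of Dnmt3a in tissue RNA was 344 and 346 intensity units in brain 1 and brain 2, and 1572 and 1901 in thymus 1 and thymus 2. That of Dnmt3l was 256, 401, 426 and 610 in the same order of samples. Of the 276 to 307 negative-control spots per channel that were no outliers, 0 reached the signal of either gene in any channel. In brain 1 the median and the 95th percentile of these spots were the same value, 45.8 in Cy3 and 27.4 in Cy5. With so little spread among the controls, the count adds little to the flags. Dnmt3l in brain 1 was the dimmest reading. Its median pixel brightness was 147 over a local background of 48, and the scanner's error was 22% of the processed signal, against about 10% for both genes in thymus 2.

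Genes with a symbol were compared with both members for their pattern over the 4 samples. Likeness was the Euclidean distance between scaled log2 values centred on each feature's own mean, compared over 27147 other features, of which 7 had a symbol. Nearest to Dnmt3a among these was Zfp36, whose protein binds AU-rich mRNAs and speeds their decay, at a distance of 1.42, followed by Dnmt3l at 1.72. They ranked 5284 and 8269 among all features, so that many unnamed features lay closer. Zfp36 stood at 0.91 and 0.99 in brain 1 and 2 and at 1.78 and 1.44 in thymus 1 and 2. The nearest feature of all was the probe TB6607, at 0.04, with 0.80 and 0.74 in brain and 2.88 and 2.75 in thymus. Nearest to Dnmt3l were Ubb, a polyubiquitin gene, at 0.28 and Xlr3c, of the X-linked lymphocyte-regulated family, at 0.43, which ranked 1358 and 3834. The nearest feature of all was the probe TF17943, at 0.03, with -1.83 and -1.26 in brain and -1.18 and -1.07 in thymus. With only 7 features with a symbol among 27147, the nearest feature of either gene was almost bound to be an unnamed probe.

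The sign of the brain minus thymus difference held for both genes in every alternative, to the scaled signals and to the ratios alike. Over 16 alternatives to the scaled signals, the Dnmt3a difference ran from -2.14 to -1.61. It passed the limma threshold in each alternative that kept all 4 samples. The Dnmt3l difference ran from -0.68 to -0.11 over as many. With all 4 samples kept it never passed, with limma adjusted p from 0.221 to 0.748. Fits with a sample left out hold 1 sample of a tissue, so their passes are not counted. Without thymus 1, and with tested features following the samples, Dnmt3a did not pass, as given above. In the authors' deposited table of log2 values, which centres each sample differently, Dnmt3a stood at 0.02 and -0.22 in brain 1 and 2 and at 2.11 and 1.79 in thymus 1 and 2. Dnmt3l stood there at -0.41, -0.01, 0.23 and 0.14. The differences fitted from the authors' deposited table were -2.05 and -0.40.

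**Figure D4:**
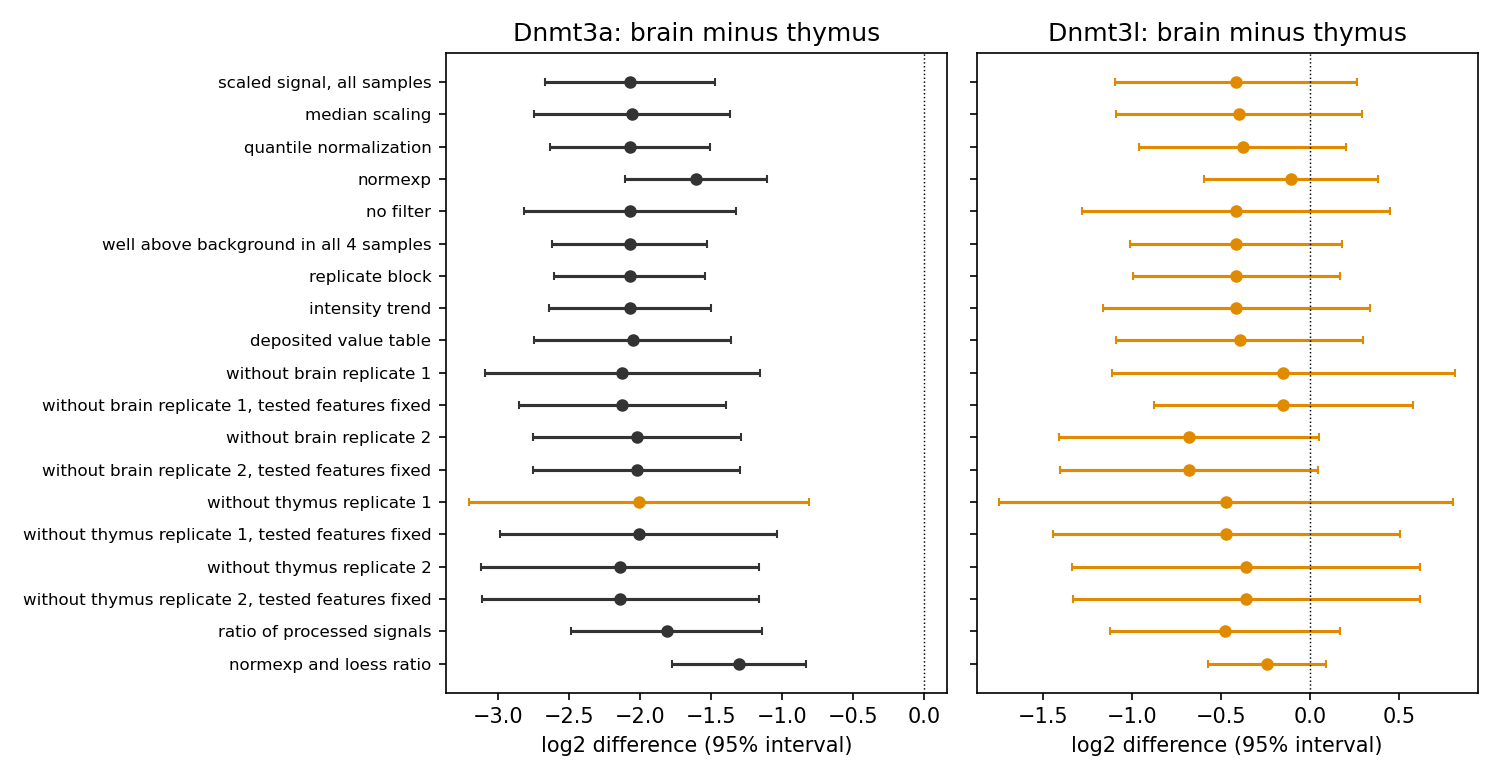
Log2 difference, brain minus thymus, of Dnmt3a (left) and Dnmt3l (right) with its 95% interval from limma (horizontal axis) under each setting (vertical axis), in black where the limma adjusted p was under 0.05 and in orange where it was not. Dnmt3a lies below 0 in every setting and is orange only without thymus replicate 1, and every Dnmt3l interval crosses 0.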

How the data were processed

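RNA of 2 brain and 2 thymus samples was measured on 2-colour arrays, from 500 ng of total RNA per the labels. The intensity values are the authors' output of Agilent Feature Extraction, version 10.5.1.1 in the submitters' processing notes and per the file headers. That software subtracts background, removes spatial trends and normalizes the dyes within each array. The log10 ratios, their errors and their p-values per spot are also the authors' deposited values. The authors' deposited log2 table equals the processed tissue signal on the log2 scale minus a constant, to within 0.001 for 100% of probes, and its column medians were -0.0013 and 0.0047 for brain 1 and 2, and 0 and 0.004 for thymus 1 and 2. Its direction is therefore known, but what it was centred on is not stated.

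The dye of each sample came from the labels and the reference channel from the deposited readme. Control and outlier spots were left out and log2 values of a probe's spots averaged. Features that the scanner called well above background in all samples of 1 tissue or more were tested. Two-sided tests used lmFit and eBayes of limma 3.58.1 (R 4.3.3) without covariates, on 2 residual degrees of freedom. The spread pooled over features added 5.07 degrees of freedom for the scaled tissue signals and 3.47 for the ratios. Benjamini-Hochberg adjustment ran over all tested features, with a threshold of 0.05. Ratios were turned to tissue over reference, and the replicates' opposite dyes cancel in a tissue's mean. The fits were also run on simulated data with independent noise, which held no effect of dye, replicate or scan day and so cannot speak to these. Alternatives were other scalings, normexp with an offset of 50 on median spot signals (planned on mean signals, not used here), other filters, a trend in the prior, the replicate block, samples left out and the deposited value table. The members and lists were chosen with earlier results of these data known. Named genes were both members, other listed DNA methylation genes with a named probe, and for each member the 2 nearest genes with a symbol and the nearest probe without. Symbols came from a RefSeq table of GRCm38.p6 for 13 of 14 names starting with NM, matched without versions. The files name no genome build. The number of arrays limits the precision.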

Additional observations from a re-analysis of the deposited data

Results flagged for a closer look

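The difference between tissue and reference RNA was not the same in brain and thymus for Dnmt3a. Its log2 ratio to the reference was -0.16 ± 0.11 (SD, n = 2) in brain and 1.65 ± 0.44 in thymus. The test of the difference itself gave -1.81 log2 units (SE 0.27, limma adjusted p 0.00495), and both brain ratios lay below both thymus ratios. It is the same contrast as the brain minus thymus difference by ratio given above, and no further result. Of 27124 features, 34.3% were called in either direction, and in 67.6% the ratios of the tissues did not overlap. The reference signal of Dnmt3a was itself -1.32 on the thymus 2 array and between -1.92 and -1.68 on the others. The reference difference, brain arrays minus thymus arrays, was -0.24 (SE 0.24), and the scaled tissue signals without the reference gave -2.07. Beyond these values, the part of the reference signal in the result was not tested.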

How the results depend on the processing

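With each sample left out, with tested features following the samples or fixed, the Dnmt3a brain minus thymus difference ran from -2.14 to -2.01 (-2.12 to -1.50 by ratio), Dnmt3a in thymus minus reference from 1.34 to 1.96, Dnmt3l minus reference from -1.45 to -0.95 in brain and -0.88 to -0.57 in thymus, and the Dnmt3l reference difference from -0.027 to 0.18, turning sign without thymus 2. Fits with fixed features for the ratios were chosen after seeing the data. Where thymus 1 was left out, more features were tested (40646), since 97.3% of probes were well above background in thymus 2. The remaining sample of a tissue is taken to vary as the other tissue does, and the fit with fixed features then gave both genes an SE of 0.498, the pooled spread. With no filter, Dnmt3l in thymus minus reference kept -0.72 and lost its call. More features were tested, and its SE rose from 0.18 to 0.21. The excess of the Dnmt3a over the Dnmt3l difference moved from -1.66 to -1.06 with the normexp and loess ratio, which changes both the background correction and the measure. It was -1.50 with normexp alone and -1.33 with the ratio of processed signals.

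Calls over all features, 9026 between tissues, were 5022 with no filter, 3646 without brain 1 and 2400 without thymus 1 (8356 and 6603 with fixed features). By ratio 9305 became 5547 with no filter, 5701 without thymus 2 and 0 without thymus 1 (5738 and 5376 with fixed features). Against the reference, 12032 calls in brain became 4982 without thymus 1 (10362 with fixed features), and 6941 in thymus became 3649 with no filter, 2751 without thymus 2 and 0 without thymus 1 (2788 and 2416). With the replicate block (dye and number being 1 factor) the differences were -2.07 for Dnmt3a (limma adjusted p 0.00175) and -0.42 for Dnmt3l (0.221), with 10169 calls, and changed no call of either gene here or in the ratios. Deviations of same-numbered samples correlated at 0.257, and no label ties a number to a shared animal. Scan day as a random block was not run, as its correlation could not be estimated. Low signal over background limits both genes, with median spot signals 3.06 (Dnmt3l) and 3.3 (Dnmt3a) times the local background in brain 1, and 2.83 times for Dnmt3a in the reference channel of brain 2.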

Other observations

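The within-array normalization changed both probes' signals by very different factors in each dye. Background-subtracted signals of both genes in tissue and reference channels ran from 59 to 1309 intensity units in Cy3 and from 204 to 2879 in Cy5. The processed signal was 1.2 to 6.42 times the background-subtracted signal in Cy3 and 0.66 to 1.99 times in Cy5. For Dnmt3a on the thymus 2 array, a background-subtracted signal of 2879 in tissue RNA became 1901, while that of the reference rose from 132 to 750. The ratio of 2.53 on this array therefore rests on this step more than the ratio of 3.89 on the thymus 1 array. There the signals were 1309 and 246 before it and 1572 and 404 after it. On the brain 2 array the Dnmt3a signals were 336 in tissue and 67 in reference RNA before this step. After it they were 346 and 368.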
